A study of Mus musculus with 27 samples.

Results

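The cytosolic ribosomal protein genes were taken by name and biotype: protein-coding genes whose symbol is Rpl or Rps followed by a number, with at most a closing a, l, x or y, and in addition Rplp0, Rplp1, Rplp2 and Rpsa. This gave 80 of the 54532 genes in each count table, 49 for the large and 31 for the small ribosomal subunit. Of these members, 77 passed the filter on low counts in every comparison. Rpl3l, Rpl10l and Rpl39l, paralogs that are mainly used in muscle or testis, were left out by it, with at most 7, 0 and 6 counts in any library of the first experiment. Rps4l, whose name would also match, is listed as a transcribed processed pseudogene and is not a member (78 to 144 counts).

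All libraries came from wild-type C57BL/6 splenic B cells, which the authors isolated by magnetic removal of the other cells and cultured for 3 h. The first experiment had 5 groups of 4 libraries: B cells without stimulus, B cells with LPS (a bacterial cell wall component that activates B cells without T cells), B cells given IL-4+anti-CD40 (which mimics T-cell help), and B cells given either stimulus with 1 µM disulfiram (DSF, a drug for alcohol dependence that blocks aldehyde dehydrogenase). The groups without inhibitor received vehicle (DMSO). The second experiment had 7 single libraries, the same 5 conditions and both stimuli with 1 µM ibrutinib, an inhibitor of the kinase Btk. The labels do not say whether replicates with the same number came from the same mouse, and the age of the mice that gave the B cells is not given in the sources used here. If the replicates are not separate mice, the p-values measure only the spread between these samples.

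Ribosomal proteins are made in near-equal amounts and assembled with ribosomal RNA in the nucleolus. Their mRNAs are among the most abundant of a cell, are stable, and start with a C followed by a run of pyrimidines, the 5′ terminal oligopyrimidine (TOP) motif, through which mTOR and the protein LARP1 set their translation. A lymphocyte that leaves rest enlarges its ribosome pool early, and much of the control of ribosomal proteins in this step is known to act on translation, which RNA counts do not show.

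The start sites of 6 members that the results below turn on are shown with 10 bases before and 20 bases from the annotated start, read from RefSeq promoters (GRCm38.p6). Capitals mark a C followed by at least 4 bases that are C or T on the sense strand.
Rps27 (chr3:90213629-90213658, minus strand): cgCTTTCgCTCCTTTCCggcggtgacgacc
Rps27l (chr9:66946076-66946105, plus strand): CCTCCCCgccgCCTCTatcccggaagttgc
Rps10 (chr17:27635225-27635254, minus strand): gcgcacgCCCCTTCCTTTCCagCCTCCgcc
Rpl39 (chrX:37085203-37085232, minus strand): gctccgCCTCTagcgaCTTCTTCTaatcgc
Rpl37a (chr1:72711250-72711279, plus strand): ctcgccggtctaaaaccgcgcatgcgcatt
Rps28 (chr17:33824543-33824572, minus strand): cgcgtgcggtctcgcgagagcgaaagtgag

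A run of this kind began exactly at the annotated start for 13 of the 72 listed starts of the 60 members with a RefSeq promoter (18.1%), against 2.51% of 32851 starts of all genes. Within 20 bases on either side of the start it was found for 54 (75%), against 48.2% of all starts. A search on the opposite strand gave 40.3% of the member starts and 54.3% of all. That search also counted pieces of runs that began outside the window, so its percentages cannot be set against those of the sense strand. The windows of Rpl37a and Rps28 show no run in the printed bases, which says only that these letters are not at the annotated start. Rps14 has no sequence printed here. Members lie on 19 chromosomes, with 14 on chromosome 7, and 29 hold 56 small nucleolar RNA (snoRNA) genes inside their bounds. The proteins range from 25 residues (Rpl41) to 419 (Rpl4), with a median of 151.5.

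Depth was between 17804851 and 23632992 counts per library in the first experiment and between 16049295 and 24619776 in the second. B cell markers such as Cd79a and Ms4a1 were present in every library, with a summed level over 8 markers of 12746 to 18187 CPM (counts scaled to a common library size) in unstimulated B cells, 7870 to 8253 with LPS, 5934 to 6280 with LPS and DSF, 7845 to 8456 under IL-4+anti-CD40 and 6599 to 6690 under IL-4+anti-CD40 and DSF. The summed T cell markers of the first experiment lay between 20.2 and 52.1 CPM, of which Lck alone had 15.6 to 46.3. Cd3e and Cd4 were at 0 in at least 1 of its libraries and reached 2.41 and 0.638 CPM. Cd3d, Cd3g, Cd8a and Trac were above 0 in every library, with at most 2.57, 2.28, 1.02 and 4.86 CPM. Myeloid markers summed to 616 to 733 CPM in unstimulated B cells and to 126 to 252 in the stimulated groups, and the part of these shifts in the results was not tested. In bulk RNA, fewer cells of a type and less RNA per cell cannot be told apart.

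Members were abundant and unequal in level. Per length, on the scale of the FPKM the authors deposited (fragments per kilobase of gene, scaled to depth), Rplp1 of the ribosomal P stalk had the highest mean over the 20 libraries of the first experiment, 2480.2 FPKM. It was followed by Rps15 with 1499.7, Rplp0 with 1361, Rpl36 with 1185, Rps29 with 1084 and Rpl4 with 1081. Some neighbours in this order lay within each other's spread: in unstimulated B cells Rps15 had 1529 ± 295 FPKM and Rplp0 had 1194 ± 184, and Rps29 had 1008 ± 295 and Rpl4 had 992 ± 89.9, whereas Rplp1 stood apart with 2381 ± 456 (SD, n = 4). The median over the 80 members within a library averaged 369.9 FPKM over the 20 libraries. The 10 members at the top were the same when TMM-normalized counts were divided by length. Both measures use the same counts and gene lengths, so this is no separate check of the order. At the other end of the expressed members stood Rps27l (66.2 FPKM), Rpl13a (15.1), Rps10 (7.10) and Rpl24 (3.60). The gene length behind these values can far exceed that of the mRNA. It was 6270 bases for Rps15a, against 640 for its principal transcript, and 4685 against 633 for Rps19, whereas for Rplp1 both were 499. Low FPKM of such genes may thus reflect the annotated length, and its part in the order was not tested.

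The low levels of Rpl13a, Rps10 and Rpl24 stood beside overlapping gene models. Rpl13a overlaps Gm45713, Rpl24 overlaps Gm28037, and Rps10 overlaps the readthrough gene RPS10-NUDT3, each with 0 counts in every library, while Rps10 also overlaps the antisense gene Gm15420 (0 to 3 counts). How reads on overlapping genes were assigned, and whether strand was used, is not given in the sources used here, so the levels of these 3 genes are uncertain. Their part in the fold changes below was not tested. The counts behind them were 496 to 826 for Rpl13a, 202 to 512 for Rps10 and 34 to 124 for Rpl24 per library.

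All members together took 6.32, 6.0, 7.16 and 8.02% of the counts in the 4 unstimulated libraries. With LPS the shares were 5.55, 5.71, 6.0 and 5.73%, and with LPS and DSF 5.44, 6.05, 5.89 and 6.36%. Under IL-4+anti-CD40 they were 6.21, 6.07, 5.36 and 5.67%, and under IL-4+anti-CD40 and DSF 6.47, 6.34, 7.19 and 6.75%. Unstimulated replicates 1, 3 and 4 lay above every library with a stimulus alone, replicate 4 lay highest of all 20, DSF with LPS overlapped LPS alone, and all 4 libraries under IL-4+anti-CD40 and DSF lay above all 4 under IL-4+anti-CD40 alone. The means were 6.87% ± 0.908 without stimulus, 5.75% with LPS, 5.93% with LPS and DSF, 5.83% under IL-4+anti-CD40 and 6.69% under IL-4+anti-CD40 and DSF (n = 4 each). These shares were calculated on all gene counts and get no test.

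**Figure D1:**
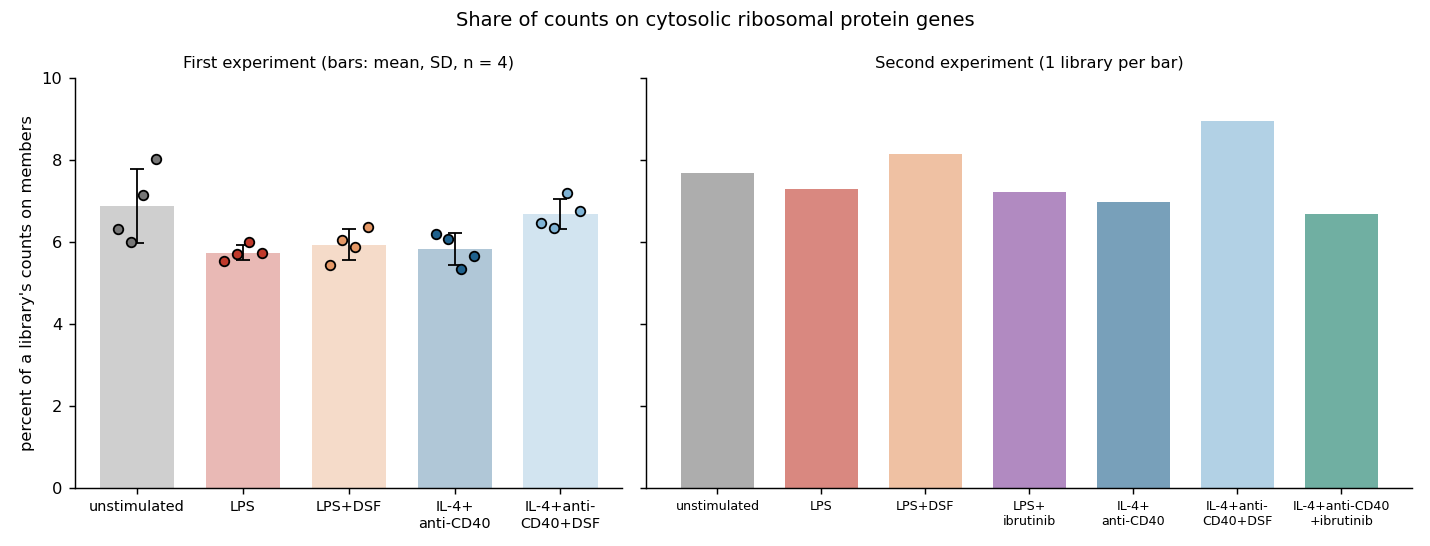
Percent of each library's counts that fell on the 80 ribosomal protein genes (vertical axis) by condition. Left, first experiment, points for libraries and bars for the mean with SD (n = 4), where the libraries under IL-4+anti-CD40 and DSF (6.34 to 7.19%) lie above those under IL-4+anti-CD40 alone (5.36 to 6.21%). Right, second experiment, 1 library per bar, where the highest bar is IL-4+anti-CD40 with DSF (8.97%).

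The size of a change and the number of members called depended on what was held fixed between libraries, and for some members the direction did as well. The main counts are therefore given under both scalings. A value without a named scaling is from TMM. TMM, the scaling of edgeR, sets the bulk of the genes to no change, whereas total counts set the sum of all reads equal. Under total counts the median of all genes tested lay at -0.27 on the log2 scale for LPS, -0.19 for IL-4+anti-CD40, -0.21 for DSF with LPS and -0.16 for DSF under IL-4+anti-CD40, against -0.05, -0.04, 0.00 and -0.02 under TMM. Beside this, the 100 most counted genes took 20.9 to 21.9% of the counts in the libraries with LPS and DSF against 17.5 to 17.9% with LPS, and 20.9 to 22.1% under IL-4+anti-CD40 and DSF against 17.8 to 18.6% under IL-4+anti-CD40. Transcripts of the mitochondrial genome took 1.81 to 1.97% with LPS and DSF against 1.69 to 1.79%, and 1.91 to 2.08% under IL-4+anti-CD40 and DSF against 1.52 to 1.76%. Their part in the results was not tested.

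Stimulated B cells were first compared with unstimulated ones, to see what the stimuli do to these genes within 3 h. Under TMM the members as a list hardly moved: with LPS, 4 of 77 were higher and 1 was lower, against 29.6% and 33.3% of the 14477 genes tested (edgeR's quasi-likelihood test, Benjamini-Hochberg adjusted p under 0.05 here and below). Their median log2 fold change was -0.04, beside -0.05 for all genes. Under IL-4+anti-CD40, 4 were higher and 8 lower, against 30.4% and 32.1% of 14433 genes, with a median of -0.09 beside -0.04. Under total counts 3 were higher and 34 lower with LPS (20.1% and 44.1% of all genes, median -0.26), and 4 and 25 under IL-4+anti-CD40 (23.9% and 38.6%, median -0.23). Both stimuli were compared with the same 4 unstimulated libraries. The members that were lower under TMM rested on single libraries: without unstimulated replicate 4, IL-4+anti-CD40 replicate 3 or IL-4+anti-CD40 replicate 4 their number under IL-4+anti-CD40 fell from 8 to 1, and without IL-4+anti-CD40 replicate 1 or 2 to 4 or 3. With all 20 libraries in a single fit 21 were lower under IL-4+anti-CD40. With LPS the number lower fell from 1 to 0 without unstimulated replicate 3 or 4 or any of the LPS libraries, and was 2 and 3 without unstimulated replicates 1 and 2. The number of members higher was 7 with each stimulus without unstimulated replicate 4.

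**Figure D2:**
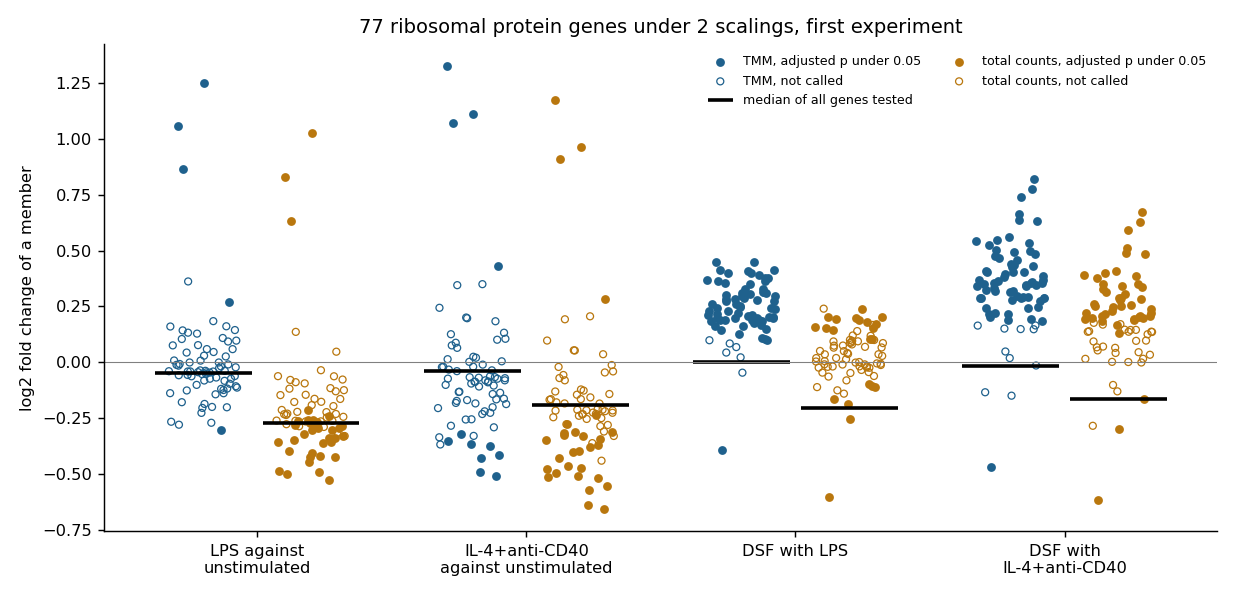
Log2 fold change (vertical axis) of each of the 77 tested members in 4 comparisons of the first experiment, under TMM (blue) and total counts (orange), filled where the adjusted p was under 0.05, with a black line at the median of all genes tested. Under TMM the members lie around the median of all genes for both stimuli and above it for DSF (member medians 0.24 with LPS and 0.35 under IL-4+anti-CD40), and under total counts both the members and the median of all genes lie lower.

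Rps27l, Rps10, Rpl24 and Rps2 rose with LPS, and under IL-4+anti-CD40 as well. Rps27l (chromosome 9, 66946086 to 66949516, plus strand) is a paralog of Rps27 and is known as a target of the tumour suppressor p53. Its TMM-normalized CPM were 41.9, 45.5, 26.4 and 27.3 without stimulus, 62.6, 66.7, 67.9 and 59.4 with LPS, and 74.8, 83.3, 61.8 and 64.9 under IL-4+anti-CD40. All stimulated libraries lay above all unstimulated ones. The log2 fold change was 0.87 with LPS (SE 0.18, adjusted p = 0.00237) and 1.07 under IL-4+anti-CD40 (SE 0.20, adjusted p = 0.00125), and 0.63 and 0.91 under total counts.

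Rps10 (chromosome 17, 27630418 to 27636669, minus strand) sits at the mRNA entry side of the small subunit and is ubiquitinated when ribosomes stall. It had 7.95, 7.80, 9.11 and 9.36 CPM without stimulus and 22.5, 22.4, 18.2 and 18.3 CPM with LPS, without overlap. The rise in log2 terms was 1.25 for LPS (SE 0.12, adjusted p = 2.96e-05) and 1.11 under IL-4+anti-CD40 (SE 0.12, adjusted p = 7.16e-05). Rpl24 rose by 1.06 and 1.33 on the log2 scale (adjusted p = 0.0043 and 0.000982), from 1.39 to 2.36 CPM without stimulus to 2.52 to 4.56 with LPS. Under total counts all 3 genes remained called higher with both stimuli, and the uncertainty from overlapping gene models holds for Rps10 and Rpl24.

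Rps2, a core protein of the small subunit that was chosen after its values were seen, had 936 to 1117 CPM without stimulus, 1211 to 1293 with LPS and 1230.1 to 1458 under IL-4+anti-CD40. Its log2 fold changes were 0.27 (adjusted p = 0.0115) and 0.43 (adjusted p = 0.00403) under TMM. Under total counts the value with LPS was 0.05 (adjusted p = 0.564), so this call was lost, and the value under IL-4+anti-CD40 was 0.28 (adjusted p = 0.0188).

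Rps27, Rpl39 and Rpl37a fell under IL-4+anti-CD40. Rps27 (chromosome 3, 90212522 to 90213651, minus strand), a zinc finger protein of the small subunit, had 874, 852, 791 and 1229.6 CPM without stimulus and 681, 667, 576 and 610 under IL-4+anti-CD40. All 4 stimulated libraries were lower than all unstimulated ones, and unstimulated replicate 4 stood above its group. Rps27 thus fell by 0.51 in log2 terms (SE 0.15, adjusted p = 0.0148). Rpl39, a very short protein at the exit tunnel for the growing chain, fell by 0.49 (adjusted p = 0.0334) and Rpl37a by 0.43 (adjusted p = 0.0331). The call of Rpl39 was lost without unstimulated replicate 4 (adjusted p = 0.0507) or IL-4+anti-CD40 replicate 3 or 4, and that of Rpl37a without unstimulated replicate 4 (adjusted p = 0.0517) or any of the IL-4+anti-CD40 libraries. The members lower under IL-4+anti-CD40 also included Rpl21, Rps4x, Rps20 and Rps21.

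The P stalk, which recruits elongation factors to the ribosome, did not pass the test with either stimulus under TMM. Rplp0 had 1701 to 2335 CPM without stimulus and 1939 to 2144 with LPS, and its log2 fold change was 0.04 (adjusted p = 0.766). Rplp1 and Rplp2 had values of -0.12 and 0.03 with LPS and of -0.17 and -0.02 under IL-4+anti-CD40. Under total counts all 3 had negative values with both stimuli, and Rplp1 was lower with LPS (-0.34, adjusted p = 0.0415). Rps6, which is phosphorylated downstream of mTOR, had -0.07 and -0.14 (adjusted p = 0.625 and 0.394). Rpl5 and Rpl11, which with 5S RNA bind Mdm2 and so link ribosome assembly to p53, had -0.04 and -0.02 with LPS and -0.09 and 0.01 under IL-4+anti-CD40. Under total counts Rps6 and Rpl5 were lower with LPS (-0.29 and -0.26, adjusted p = 0.0396 and 0.0337).

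Genes that make the ribosome, but are no part of it, moved otherwise under TMM. Of 20 RNA polymerase I and nucleolar factors, 19 rose with each stimulus, with median log2 fold changes of 1.38 and 1.57. Of all genes, 29.6% rose with LPS and 30.4% under IL-4+anti-CD40, and 20.1% and 23.9% under total counts. Polr1b, a core subunit of RNA polymerase I, rose by 2.00 and 2.13, and Ncl (nucleolin) by 1.64 and 1.92. Of 19 tested genes that carry or load ribosomal proteins or finish the subunits, 16 rose with LPS and 19 under IL-4+anti-CD40 (medians 1.21 and 1.30), among them Grwd1, a chaperone of Rpl3, by 1.75 and 1.73. Under total counts 15 and 17 of these rose, and 19 and 19 of the nucleolar factors.

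Of 12 genes that signal growth to the ribosome, 6 rose and 4 fell with LPS and 7 rose and 2 fell under IL-4+anti-CD40 (medians 0.13 and 0.44), beside the 29.6% and 33.3%, and 30.4% and 32.1%, of all genes given above. Under total counts 5 rose and 4 fell with LPS and 6 rose and 3 fell under IL-4+anti-CD40, and the median with LPS turned to -0.10. Larp1, whose product holds TOP mRNAs back from translation, rose by 1.90 and 1.88, and Eif4ebp1, another brake under mTOR, had 0.07 with LPS and rose by 1.17 under IL-4+anti-CD40. Of 18 other TOP mRNAs, 6 rose and 2 fell with LPS and 8 rose and 3 fell under IL-4+anti-CD40 (medians 0.14 and 0.22). Under total counts 5 rose and 8 fell with LPS (median -0.08) and 5 rose and 4 fell under IL-4+anti-CD40 (median 0.07). Eef1a1, an elongation factor, had 0.01 and -0.04 under TMM and was lower with LPS under total counts (-0.22, adjusted p = 0.0376), and Npm1 (nucleophosmin) rose by 1.11 and 1.31. Mitochondrial ribosomal protein genes, the set most like the members in kind, rose in 46 of 77 cases and fell in 9 with LPS (median 0.39), and rose in 52 and fell in 3 under IL-4+anti-CD40 (median 0.49). Under total counts 34 rose and 16 fell with LPS, and 41 rose and 7 fell under IL-4+anti-CD40.

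Next, LPS was compared directly against IL-4+anti-CD40. Under TMM 23 members were higher with LPS, against 22.3% of 14078 genes, with a median of 0.12 beside -0.01. Under total counts 2 were higher and 6 lower (17.3% and 33.4% of all genes, median -0.02), so that the direction of the list turned with the scaling. Only Rps27 and Rps20 were higher with LPS under both. The TMM count also fell to 7 without LPS replicate 3 or IL-4+anti-CD40 replicate 3 and to 8 without LPS replicate 4, and to 14 without LPS replicate 2 or IL-4+anti-CD40 replicate 4. With all 20 libraries in a single fit it was 2.

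Then DSF was compared with vehicle under each stimulus, to see what the drug does to the ribosomal protein mRNAs of activated B cells. Under TMM nearly all members were higher with DSF: 70 of 77 with LPS and 65 of 77 under IL-4+anti-CD40, against 35.1% of 14154 and 30.1% of 14275 genes. The changes were small, with median log2 fold changes of 0.24 and 0.35, beside 0.00 and -0.02 for all genes. A single member was lower, Rps27l under each stimulus, against 36% and 31.6% of all genes. Under TMM the number of members above all vehicle libraries was 29 with LPS (30.3% of all genes) and 66 under IL-4+anti-CD40 (30.6%). By total counts it was 3 with LPS (22.2% of all genes) and 37 under IL-4+anti-CD40 (20.6%). With each stimulus 3 members then lay below all vehicle libraries (43.7% and 38.6% of all genes).

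Under total counts the picture differed between the stimuli. With LPS 14 members were higher and 7 lower with DSF (24.5% and 47.2% of all genes, median 0.04), and of the 70 members higher under TMM, 53 were not called and 3 (Rpl14, Rpl22 and Rps2) were lower. Under IL-4+anti-CD40 44 were higher and 3 lower (22.9% and 40.9% of all genes, median 0.20), and 21 of the 65 were not called. The 14 members higher with DSF and LPS under both scalings included Rplp0, Rplp1, Rpl9, Rpl23, Rpl35a, Rps3, Rps13, Rps14, Rps15a, Rps16, Rps20, Rps24 and Rps28. With all 20 libraries in a single fit, the TMM number with LPS was 31 rather than 70.

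Members were ranked for DSF with LPS if they were called, their groups did not overlap and every library of the higher group had at least 10 counts. The 3 largest rises among these were those of Rps14, Rps15a and Rps3, all of the small subunit. Without these conditions a large subunit member had the highest log2 fold change, 0.448103, against 0.448078 for the highest of the small subunit. Rps14 (chromosome 18, 60774510 to 60778546, plus strand) forms part of the decoding platform and had 1036, 1028, 1187 and 1089.9 CPM with LPS and 1356, 1364, 1547 and 1586 with LPS and DSF. The groups did not overlap. The log2 fold change was 0.45 (SE 0.05, adjusted p = 3.4e-08), and 0.24 under total counts (adjusted p = 0.000151). Rps15a had 649 to 740 CPM against 767 to 1005 with DSF (log2 fold change 0.41, adjusted p = 3.6e-07), and Rps3, which lines the mRNA entry, 1313 to 1547 against 1701 to 1985 (0.41, adjusted p = 7.18e-08).

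Under IL-4+anti-CD40 the largest rises were those of Rps27, Rps29 and Rps28, 3 short proteins of the small subunit. Rps27 had 681, 667, 576 and 610 CPM under IL-4+anti-CD40 and 1113, 1105, 1269.7 and 1192 with DSF added. All 4 libraries with DSF lay far above the vehicle group. The log2 fold change was 0.82 (SE 0.07, adjusted p = 3.59e-06), and 0.67 under total counts (adjusted p = 5.15e-06). With LPS, Rps27 had 783, 721, 902 and 854 CPM against 827, 1165, 969 and 1229 with DSF, which overlapped, and its log2 fold change, 0.38 (SE 0.08, adjusted p = 0.000159), was not called under total counts (0.17, adjusted p = 0.0545).

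Rps29, a zinc-binding protein in the head of the small subunit, had 617, 615, 438 and 558 CPM under IL-4+anti-CD40 and 947, 922, 1108 and 1009 with DSF. No library overlapped, and the log2 fold change was 0.78 (SE 0.11, adjusted p = 7.14e-05). Rps28 had 266, 259, 209 and 266 CPM against 385, 412, 481 and 468 with DSF, again without overlap, and rose by 0.74 in log2 terms (SE 0.09, adjusted p = 3.65e-05). Under total counts the changes were 0.63 and 0.59, and both remained called. Rpl37a and Rpl39 followed with 0.66 and 0.64 (adjusted p = 1.52e-05 and 6.5e-05), and 0.51 and 0.49 under total counts. These 2 members and Rps27 had fallen under IL-4+anti-CD40 alone, a comparison that uses the same IL-4+anti-CD40 libraries.

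**Figure D3:**
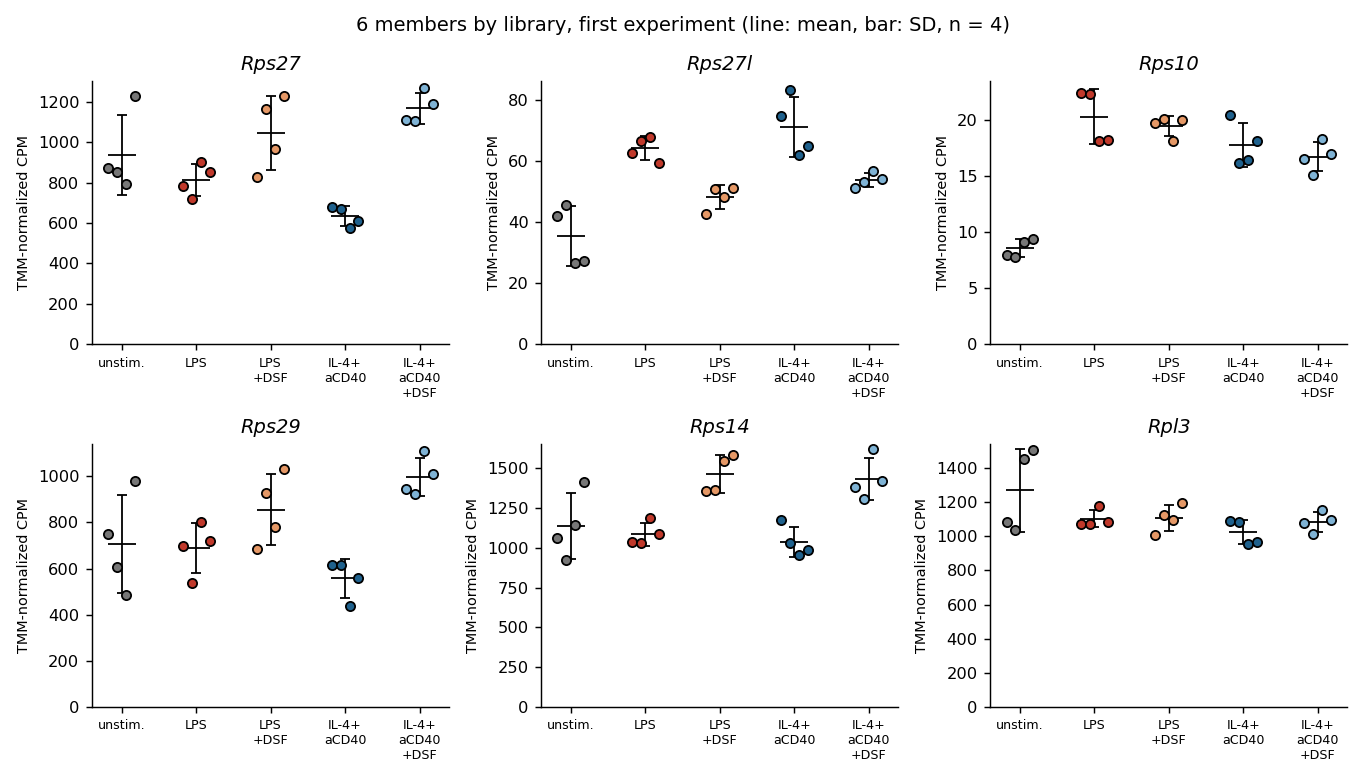
TMM-normalized CPM (vertical axis, from 0) of 6 members in the 20 libraries of the first experiment by group, with the mean and SD (n = 4). Rps27l falls and Rps27, Rps29 and Rps14 rise with DSF, whereas the log2 fold change of Rpl3 with DSF is 0.02 under both stimuli, and Rps10 separates the unstimulated from all other libraries.

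Rps27l was lower with DSF under both stimuli and both scalings. It had 62.6, 66.7, 67.9 and 59.4 CPM with LPS and 42.6, 50.9, 48.3 and 51.2 with LPS and DSF. Under IL-4+anti-CD40 it had 74.8, 83.3, 61.8 and 64.9 CPM and with DSF 51.0, 53.2, 56.6 and 54.0. Under each stimulus all libraries with DSF lay below all vehicle libraries, although above the unstimulated libraries except that the lowest of the LPS and DSF group, 42.6, lay below the highest unstimulated value, 45.5. The log2 fold change was -0.40 with LPS (SE 0.06, adjusted p = 1.16e-06) and -0.47 under IL-4+anti-CD40 (SE 0.09, adjusted p = 0.000908), and -0.60 and -0.62 under total counts. Mdm2, another known p53 target and its inhibitor, rose with DSF by 1.19 and 0.77 (adjusted p = 2.2e-17 and 6.25e-06).

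The near-identical pair Rps27 and Rps27rt needs a limit: Rps27rt, a protein-coding copy on chromosome 9 with 2625 to 7001 counts per library, rose with DSF by 0.31 with LPS and 0.73 under IL-4+anti-CD40, and its call with LPS was lost under total counts (0.10, adjusted p = 0.233). Reads that match both cannot be assigned by sequence, and how they were counted is not given in the sources used here. Of the members as a whole, 297 named pseudogenes are in the table, 289 of them processed copies without introns. Adding their counts changed the mean member share with LPS from 5.75 to 5.95%.

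By role, the P stalk rose as a whole with DSF. Rplp0 had 1939 to 2144 CPM with LPS and 2395 to 2803 with DSF, and 1869 to 2178 under IL-4+anti-CD40 and 2570.3 to 2854 with DSF. Its groups did not overlap under either stimulus, and the log2 fold changes were 0.35 and 0.33 (adjusted p = 1.87e-07 and 0.00115). Rplp1 rose by 0.36 and 0.49 and Rplp2 by 0.31 and 0.44. Under total counts Rplp0 and Rplp1 remained called with both stimuli (0.14 and 0.15 with LPS), and Rplp2 under IL-4+anti-CD40 only (0.10 with LPS, adjusted p = 0.1).

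The next members, named for their known roles, had values from 0.11 to 0.41 under TMM. These lay on both sides of the medians of all members, 0.24 with LPS and 0.35 under IL-4+anti-CD40. Rpl5 rose by 0.30 and 0.32 and Rpl11 by 0.20 and 0.24 (adjusted p = 2.62e-06, 0.00342, 0.000224 and 0.0232), and none of the 4 was called under total counts (adjusted p from 0.0505 to 0.85). Rps6 rose by 0.20 and 0.25, Rps26, which contacts mRNA upstream of the start codon, by 0.20 and 0.34, and Rpsa, the laminin receptor protein of the small subunit, by 0.17 and 0.29. Under total counts the values with LPS were -0.01, -0.01 and -0.03, so their sign turned. Rpl10, which joins the large subunit last, rose by 0.30 and 0.28, and Rps4x, the X-linked form, by 0.24 and 0.41, and neither was called with LPS under total counts. Rpl22, whose product limits its own paralog Rpl22l1, rose by 0.11 (adjusted p = 0.0382) and 0.19 (0.0477) under TMM and was lower with LPS under total counts (-0.10, adjusted p = 0.0458), while Rpl22l1, which is no member, rose by 0.68 and 0.42.

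Some members did not pass the test with DSF. Rpl3, which shapes the peptidyl transferase centre, had 1074, 1073, 1177 and 1087 CPM with LPS and 1011, 1124, 1097 and 1196 with DSF. Under IL-4+anti-CD40 it had 1093, 1085, 957 and 969 CPM and with DSF 1078, 1012, 1153 and 1096. The groups overlapped under each stimulus, and the log2 fold change was 0.02 in both comparisons (SE 0.05 and 0.07, adjusted p = 0.678 and 0.825), although with LPS it was lower under total counts (-0.19, adjusted p = 0.000375). Besides Rpl3, the members not called under TMM were Rpl13a, Rpl21, Rpl29, Rpl41 and Rps10 with LPS, and Rpl13a, Rpl14, Rpl15, Rpl18, Rpl24, Rpl30, Rpl7a, Rpl8, Rps2 and Rps10 under IL-4+anti-CD40.

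The members did not move as a single block. When each library was scaled to its summed member counts, a comparison chosen after seeing the data, a fold change is read against the members as a whole. This scaling holds the sum of the members fixed, so values on both sides of 0 follow from its construction. With DSF and LPS, 7 members were then higher and 9 lower, against 21.3% and 47.1% of all genes, and with DSF and IL-4+anti-CD40 11 and 12, against 13.1% and 49.2%. Lower against the other members under both stimuli were Rps27l (-0.65 and -0.81), Rps10 (-0.30 and -0.50), Rpl3 (-0.23 and -0.33), Rps2 (-0.15 and -0.36), Rpl14, Rpl22 and Rpl6. Rpl23, Rps15a and Rps20 were among those higher under both. A member such as Rps2, higher with DSF and LPS under TMM, can thus be lower against its fellow members. For the stimuli, the same scaling called 4 members higher and 2 lower with LPS (22.8% and 29.1% of all genes) and 9 and 7 under IL-4+anti-CD40 (27% and 26.8%).

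The comparisons of DSF under LPS and under IL-4+anti-CD40 share no library. Across the 77 members, which are not independent replicates and share libraries within each comparison, their log2 fold changes correlated at 0.689 (Pearson) and 0.617 (Spearman), and 75 had the same sign under TMM. In a direct test of the difference, 2 members, Rps27 and Rpl37a, rose less with LPS than under IL-4+anti-CD40, against 6.96% of 15130 genes. The difference was -0.45 for Rps27 (SE 0.14, adjusted p = 0.0332) and -0.36 for Rpl37a (SE 0.12, adjusted p = 0.0474). Both calls were lost without LPS replicate 3 or 4, LPS and DSF replicate 1 or 3, IL-4+anti-CD40 replicate 3, or IL-4+anti-CD40 and DSF replicate 3 or 4 (adjusted p from 0.0542 to 0.0966), and that of Rpl37a also without LPS replicate 1 or IL-4+anti-CD40 replicate 4. Without LPS and DSF replicate 4 the number was 7. Under total counts 8 members differed in this direction (9.41% of all genes). Rps29 had a difference of the same size as Rps27, -0.45, with an adjusted p of 0.0999.

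Protein length, which no rule used, varied with the response to DSF under IL-4+anti-CD40. The 10 tested members of at most 100 residues had a median log2 fold change of 0.60 and the 67 longer ones of 0.33 (0.45 and 0.18 under total counts). Not every short member followed this. Rps27l had -0.47, and Rpl41, the shortest, had 0.29 to 0.43 over fits that each left out 1 library, near the median of the longer members. With LPS the medians were 0.28 and 0.24. Across the 77 members, Pearson's correlation of the log2 fold change with the number of residues was -0.383 and Spearman's -0.50 under IL-4+anti-CD40, and -0.113 and -0.189 with LPS. For IL-4+anti-CD40 against unstimulated, the medians were -0.33 for the short and -0.07 for the longer members (-0.48 and -0.22 under total counts). That comparison uses the same IL-4+anti-CD40 libraries, and the part of their levels in the DSF values was not tested. The limit of 100 residues was chosen after the values were seen, and the points of a comparison share their libraries and depth, so the values are a description. Medians of the DSF response by subunit and snoRNA content lay closer together. Those of large and small subunit members were 0.23 and 0.25 with LPS and 0.33 and 0.35 under IL-4+anti-CD40. Those of snoRNA hosts and the others were 0.23 and 0.25 with LPS, and 0.35 and 0.34 under IL-4+anti-CD40.

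**Figure D4:**
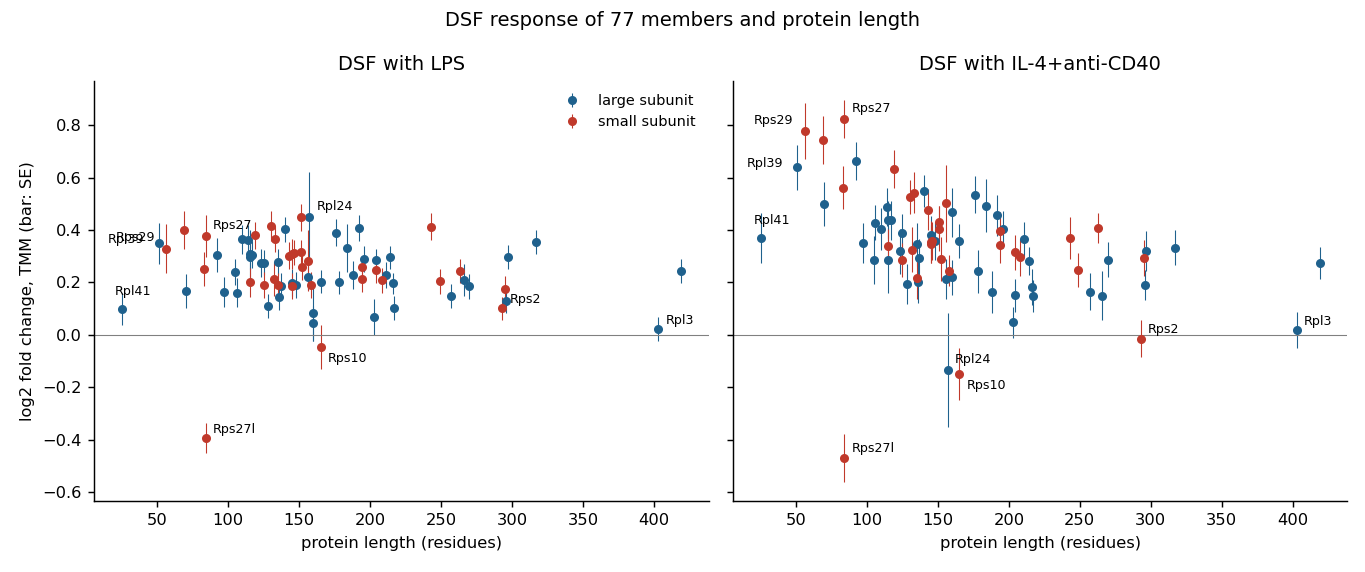
Log2 fold change with DSF under TMM (vertical axis, bars for the SE) against protein length in residues (horizontal axis) for 77 members, blue for the large and red for the small subunit. Under IL-4+anti-CD40 (right) Rps27, Rps29 and Rpl39 stand above the longer members, whereas Rps27l lies lowest in both panels.

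Most RNA polymerase I, nucleolar and mitochondrial ribosomal protein genes fell with DSF under TMM. The counts below stand beside 36% of all genes lower and 35.1% higher with LPS, and 31.6% and 30.1% under IL-4+anti-CD40. Under total counts these shares were 47.2% and 24.5% with LPS, and 40.9% and 22.9% under IL-4+anti-CD40. Of the 20 RNA polymerase I and nucleolar factors, 17 fell and 1 rose with LPS and 18 fell under IL-4+anti-CD40 (medians -0.39 and -0.58), and under total counts 19 and 18 fell. Polr1b fell by 0.87 and 1.13. Of the 19 chaperone and assembly genes, 9 fell and 7 rose with LPS and 11 fell and 3 rose under IL-4+anti-CD40, among them Grwd1, which fell by 0.62 and 0.79, and under total counts 13 and 15 fell and 4 and 1 rose. Mitochondrial ribosomal protein genes fell in 61 of 77 cases with LPS and in 55 under IL-4+anti-CD40 (medians -0.50 and -0.43), and rose in 5 and 6. Under total counts 68 and 62 fell. Their share of the counts was 0.175 to 0.184% with LPS and DSF and 0.271 to 0.281% with LPS alone.

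Of the 18 other TOP mRNAs, 10 rose and 4 fell with LPS, and 6 rose and 5 fell under IL-4+anti-CD40 (medians 0.12 and 0.07). Of all genes, 35.1% rose and 36% fell with LPS, and 30.1% rose and 31.6% fell under IL-4+anti-CD40. The TOP counts under IL-4+anti-CD40 thus lay near the shares of all genes. Eef1a1 rose by 0.34 and 0.33, Eef2 by 0.50 and 0.41, and Tpt1 by 0.52 and 0.63, and these 3 remained called under total counts. With LPS the values of Eef2 and Tpt1 lay above that of the highest member, 0.45. Of the 8 genes of ribosomal proteins or their relatives outside the name rule, 6 rose with LPS and 5 under IL-4+anti-CD40 under TMM, and 2 and 4 under total counts. Rpl7l1, a nucleolar relative of Rpl7, fell by 0.24 and 0.34. Among the 12 growth signalling genes, 7 and 8 fell (9 and 9 under total counts), with Mtor lower by 0.39 and 0.57. Under total counts 3 of the 18 other TOP mRNAs rose and 9 fell with LPS, and 3 rose and 8 fell under IL-4+anti-CD40. Their medians were -0.09 and -0.08, so that the sign of their median turned. Of all genes, 24.5% rose and 47.2% fell under this scaling with LPS, and 22.9% rose and 40.9% fell under IL-4+anti-CD40.

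The second experiment had 1 library per condition, so its ratios have no replicate check and no test. Members past 1.5-fold were counted under TMM. With DSF 14 of 77 were higher and 1 lower over LPS alone (30.1% and 31.6% of 14275 genes), with a median log2 ratio of 0.45 beside -0.04, and 41 were higher and 2 lower over IL-4+anti-CD40 alone (32% and 31.6%), with a median of 0.62. Under total counts the numbers were 2 and 2 (22.8% and 41.7% of all genes), and 13 and 2 (25.8% and 39.1%), with medians of 0.15 and 0.37. When TMM was computed on genes whose mean count was at least 50, 46 members passed with LPS instead of 14, so this count depended on the filter.

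Ibrutinib gave 0 members past 1.5-fold in either direction with both stimuli, against 8.15% higher and 7.55% lower of all genes with LPS and 7.22% and 5.88% under IL-4+anti-CD40. The median log2 ratios were -0.00 and -0.09. DSF and ibrutinib were set against the same vehicle libraries. Rps27l had 39.8 CPM by total counts without stimulus, 72.6 with LPS, 16.5 with LPS and DSF, and 71.9 with LPS and ibrutinib. Under IL-4+anti-CD40 it had 84.2, with DSF 20.4 and with ibrutinib 75.3 CPM. Both libraries with DSF were thus lower than the unstimulated library, and the log2 ratios under TMM were -1.82 and -1.80 for DSF and -0.00 and -0.18 for ibrutinib.

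Rps27 had 1121 CPM by total counts under IL-4+anti-CD40, 1986 with DSF and 1243 with ibrutinib in this experiment, and its log2 ratios under TMM were 1.07 and 0.13. Rpl24, higher with each stimulus in the first experiment, had ratios of 0.14 and 0.19 here, on 72 to 77 counts. Rps10 had 1.02 with each stimulus, on 127 counts without stimulus and 219 and 221 with. By total counts Rps10 had 6.78 CPM without stimulus, 12.5 with LPS and 12.6 under IL-4+anti-CD40. With DSF added it had 7.78 with LPS and 6.98 under IL-4+anti-CD40, on 157 and 112 counts. Across the 77 members the DSF values of the first and second experiment correlated at 0.729 (Pearson) and 0.561 (Spearman) with LPS, and at 0.803 and 0.776 under IL-4+anti-CD40, with the same sign in 76 and 75 members. These points share their libraries within each experiment and get no p.

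**Figure D5:**
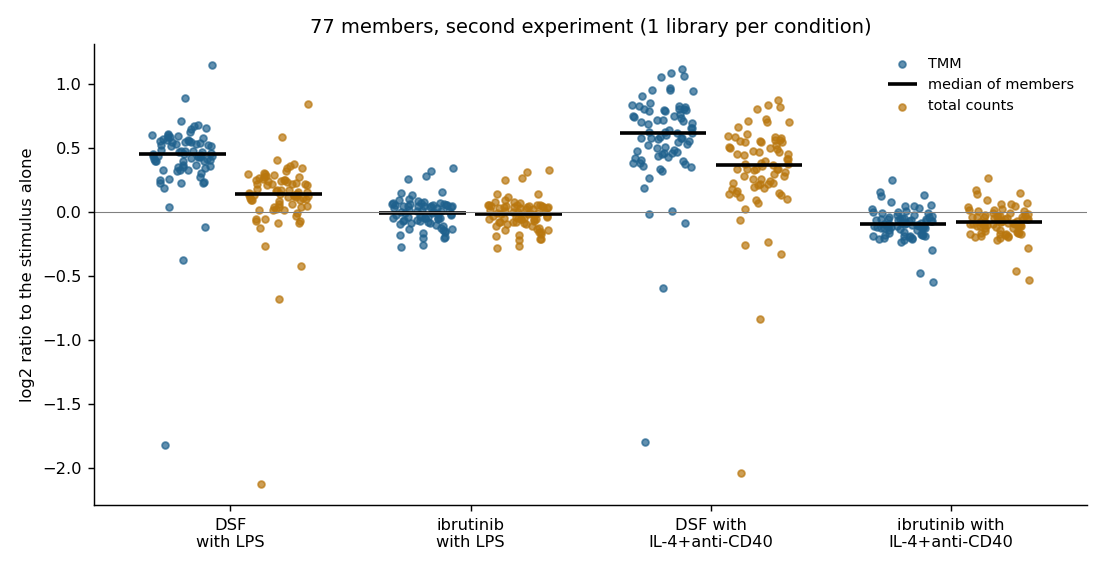
Log2 ratio to the stimulus alone (vertical axis) of 77 members in the second experiment, 1 library per condition, under TMM (blue) and total counts (orange), with a black line at the median of the members. With ibrutinib the medians lie near 0, and with DSF at 0.45 and 0.62 under TMM and 0.15 and 0.37 under total counts, with Rps27l far below.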

How the data were processed

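Polyadenylated RNA was sequenced on an Illumina NovaSeq and aligned to the mouse genome mm10 with HISAT2 2.0.5, and the authors deposited read counts per gene from featureCounts 1.5.0-p3, together with FPKM, which the authors derived from those counts, gene length and depth. The annotation release and the use of strand are not given in the sources used here. Depth was 16049295 to 24619776 counts per library.

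Counts were tested in edgeR 4.0.16 (R 4.3.3) by the quasi-likelihood test after its filter on low counts, with TMM scaling, over all genes that passed. Each comparison used its own 8 libraries, and the difference between the DSF effects used 16. Benjamini-Hochberg adjusted p under 0.05 was called. The FPKM served to order levels only. The second experiment has 1 library a group and was described by ratios with a prior count of 2 and a minimum mean of 10 counts.

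The members and gene lists were chosen with earlier results of these data known. Named members were the 3 with the largest change in each direction among those called, together with members chosen for their known roles, and any other was named after its values were seen. Alternatives were total counts, DESeq2 1.42.0, its size factors, other filters, a single fit, a replicate block, TMM without the members and leaving out each library. Scaling to the summed members was added after the data were seen. The scripts were tested on simulated data. Some genes are counted in the totals but not reported here by name.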

Additional observations from a re-analysis of the deposited data

Results flagged for a closer look

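In 3 of the 125 groups of 4 libraries searched among the named members, 1 library lay apart from the other 3, where chance gives about 1 in 20. Rpl3 had 1177 TMM-normalized CPM in LPS replicate 3 and 1073 to 1087 in the others. Rps10 had 18.1 CPM in LPS and DSF replicate 3 and 19.8 to 20.1 in the others. Rps28 had 209 CPM in IL-4+anti-CD40 replicate 3 and 259 to 266 in the others.

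The effect of DSF differed between the stimuli for 2 named members by a test of the difference itself (edgeR's quasi-likelihood test). The log2 fold change was lower with LPS than with IL-4+anti-CD40 by -0.45 for Rps27 and by -0.36 for Rpl37a.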

How the results depend on the processing

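Total counts moved most. Under them 34 members were lower with LPS and 25 under IL-4+anti-CD40, DSF gave 14 higher and 7 lower with LPS and 3 lower under IL-4+anti-CD40, LPS against IL-4+anti-CD40 gave 2 and 6, and 8 differed between the DSF effects. In the second experiment 1 was lower with LPS, 2 were higher and 2 lower for DSF with LPS, and 13 were higher for DSF under IL-4+anti-CD40. Among members named by the rule or for their roles, and called under at least 1 of the scalings, the sign turned for DSF with LPS in Rpl11 (-0.0092), Rpl22 (-0.10), Rpl3 (-0.19), Rps26 (-0.0095), Rps6 (-0.0051) and Rpsa (-0.034), and for LPS against IL-4+anti-CD40 in Rps4x (-0.0043). A single fit of 20 libraries gave 2 lower with LPS, 21 lower under IL-4+anti-CD40, 31 higher for DSF with LPS, 2 higher for LPS against IL-4+anti-CD40 and 0 for the difference of DSF effects, which was 6 by DESeq2 and 11 with all genes of any count. Whether same-numbered libraries belong together is not given, and the correlations of their deviations ran from -0.06 to 0.25. The highest, 0.25 and 0.24, were those of replicates 1 and 4 for DSF under IL-4+anti-CD40. These correlations cannot settle whether the replicates are paired. With the replicate number as a block, 0 were lower with LPS, 2 lower under IL-4+anti-CD40, 10 higher for LPS against IL-4+anti-CD40 and 1 differed between DSF effects. In the second experiment a mean of at least 50 counts gave 46 higher for DSF with LPS and 1 lower for DSF under IL-4+anti-CD40, and a 2-fold limit 1 higher with LPS, and 4 higher and 1 lower under IL-4+anti-CD40. The share with LPS was 5.96% of protein-coding counts and 5.95% with pseudogenes added. Leaving out 1 library gave 4 to 7 higher and 0 to 3 lower with LPS, 4 to 7 and 1 to 12 under IL-4+anti-CD40, 59 to 70 higher for DSF with LPS, 58 to 70 for DSF under IL-4+anti-CD40, 7 to 24 for LPS against IL-4+anti-CD40, and 0 to 7 for the difference of DSF effects. TMM without the members and pseudogenes kept the direction and call of all 144 values of named members. The cause of these changes was not tested.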
